A study of Homo sapiens with 16 samples.

Results

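The mRNAs described here encode the proteins of the large ribosomal subunit, 45 genes named RPL or RPLP with their number. Their members were taken as every listed position whose gene symbol is in that family and whose gene is annotated as protein-coding, in all 10 deposited tables. They cover 19912 of the 719918 distinct positions listed, and 45 of the 13954 genes. The study mapped pseudouridine in polyadenylated RNA fragmented to about 250 nucleotides. The reagent CMC forms a lasting adduct on pseudouridine, and reverse transcriptase stops beside it. The stop percent of a position is the number of reads that stop there over the number that cover it.

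There were 8 groups of 2 libraries each. Wild-type HEK293T cells, a human embryonic kidney line, gave libraries left untreated (CMC-), others treated with the reagent (CMC+), and others in which the reagent was followed by Terminator, an exonuclease that digests RNA carrying a 5′ monophosphate. Wild-type HCT116 cells, a human colorectal carcinoma line, gave the same 3 kinds. HCT116 cells with a short hairpin RNA against DKC1, the pseudouridine synthase of box H/ACA particles, gave CMC- libraries and libraries with CMC and Terminator. The labels name 1 hairpin and call the comparison cells wild type. The names of the deposited tables carry Lacz for HCT116 and knockdown cells alike, without saying what it is. Whether the comparison cells carried a control hairpin is not stated in the sources used here, so the hairpin and the loss of DKC1 cannot be told apart. The Terminator libraries carry further steps in their labels, written AP5 and RE or XhoI, and no CMC- library had Terminator. In a comparison of Terminator with CMC- libraries the parts played by CMC, the exonuclease and these steps therefore cannot be told apart.

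Ribosomal protein mRNAs are short, abundant and stable, and most begin with a 5′ terminal oligopyrimidine tract, a C followed by a run of pyrimidines through which mTOR signalling controls their translation. The proteins form the body of the large subunit. RPLP0, RPLP1, RPLP2 and RPL12 build the stalk that recruits translation factors, RPL5 and RPL11 travel with 5S RNA and can bind MDM2, and others line the exit tunnel or stand near the peptidyl transferase centre. Pseudouridine in mRNA is placed by stand-alone enzymes such as PUS7 and TRUB1, while DKC1 works with guide RNAs and modifies mainly ribosomal and spliceosomal RNA.

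The results turn on 9 positions, whose surroundings are printed 5′ to 3′ on the mRNA strand as the deposited tables give them, in DNA letters. The listed base is in capitals. The first 6 rose with Terminator in all 3 cell populations by each of the main measures used below. RPL15 and RPL35A held further large rises in HCT116 or knockdown cells, and RPL9 is an example of a stop within 20 nucleotides of the 5′ end. Coordinates are on hg38, and nucleotide numbers count from the 5′ end of the transcript that the table names.
RPL19, chr17:39201278, plus strand, U at nucleotide 147, coding, exon 2: aaggtctggtTagaccccaat
RPL37A, chr2:216499392, plus strand, U at nucleotide 151, coding, exon 2: gctctttctgTggcaaaacca
RPL11, chr1:23693829, plus strand, U at nucleotide 414, coding, exon 3: tcagatccttTggcatccgga
RPLP2, chr11:810020, plus strand, U at nucleotide 37, 5′ UTR: ctccgccgccTccgccgcaga
RPL23, chr17:38850171, minus strand, G at nucleotide 396, coding, exon 5: gtgcagacttGtggccccgga
RPL28, chr19:55388029, plus strand, A at nucleotide 343, coding, exon 3: aagaacaagtAccgccccgac
RPL15, chr3:23917851, plus strand, U at nucleotide 180, 5′ UTR: gagcccgcggTaagccaagat
RPL35A, chr3:197951246, plus strand, U at nucleotide 147, coding: ttgaaggtgtTtacgcccgag
RPL9, chr4:39458916, minus strand, U at nucleotide 7, 5′ UTR: agacgtTctttctttgc

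The tables list a position only where the treated library has at least 5 stop reads, the paired CMC- library has at least 1, and the treated stop percent is not below the control's. A rise in stop percent over the control is therefore built into every listed position, and each change below is read against the same measure over all positions tested. The library totals that the RPM values (reads scaled to a fixed total) imply were 14904452 to 19063723 reads in HEK293T and 22493497 to 31261784 in the tables of HCT116 and knockdown cells with Terminator. They were 8653041 to 10230136 in the HCT116 tables without Terminator. Reads matching several places were given fractional weight in these tables and in those of HEK293T, but whole counts stand in the Terminator tables of HCT116 and knockdown cells. In the HCT116 tables without Terminator the control was taken, by cell line and replicate number, to be the same pair of CMC- libraries. Control covering reads at member positions there had a median of 0.840 and 0.860 of the value in the HCT116 Terminator tables, against 0.943 and 0.957 at other mRNA positions. DKC1 itself was covered at only 2 positions in both HCT116 and knockdown tables, nucleotides 20 and 23. Wild-type CMC- libraries held 8 to 14 covering reads there, and the first knockdown CMC- library 5 and 6, at log2 differences of -0.93 and -1.14. In the Terminator libraries the differences were smaller, -0.62 and -0.43. At nucleotide 23 only the second wild-type replicate was listed. The tables of the second knockdown replicate did not list these positions. Of 7 epithelial and intestinal markers of HCT116, 6 were listed in the HCT116 Terminator tables and 1 in those of HEK293T. Of 5 HEK293T markers, 4 were listed in the HEK293T tables and 0 in those of HCT116.

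Most listed member positions, 15924 or 80.0%, lay in coding sequence, with 1531 in 5′ UTRs, 872 in 3′ UTRs and 1585 outside the annotated exons of the gene. The U share was 23.8% (4749 positions), below the 33.1% of other mRNAs and near the 24.3% of small-subunit ribosomal protein mRNAs. Of member positions with a full sequence, 23.3% had the same 31 bases listed under another gene, against 2.86% in other mRNAs. Reads in such stretches cannot be assigned to the gene with certainty. After the minimum of 10 stop reads in 2 libraries, 1040 member positions in 45 genes were tested in HEK293T, 1267 in 42 genes in HCT116 without Terminator, and 1099 in 43 genes in the HCT116 and knockdown Terminator tables. RPL22, which also binds small viral RNAs, and RPL39, a small protein of the tunnel wall, had no tested position in either HCT116 set. Stop reads were compared on 2 scales, relative to the library total and relative to the reads covering the position. A position was called at an edgeR adjusted p under 0.05 and a change of at least 2-fold. The labels do not say that replicates came from separate cultures, so p-values measure only the spread between these libraries.

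CMC alone moved few member positions past the test. In HEK293T cells the median stop percent at member U was 4.54 and 4.06 in the CMC- libraries and 6.26 and 5.39 with CMC, and at other bases it went from 3.64 and 3.23 to 5.01 and 4.26. The CMC+ libraries lay above the CMC- libraries at U and at other bases alike, a direction that the listing fixes, while replicates differed at a typical member position by 0.695 to 0.985 percentage points in the CMC- and CMC+ libraries of these 2 lines. By library totals 0 of 1040 member positions were called, with 37 at an unadjusted p under 0.05 and 0 by DESeq2, where 0.465% of all positions and 1.13% of all U were called higher. Those calls over all positions, 69 in all, fell to 2 without the replicate block, 4 with TMM scaling, 0 without the second CMC+ library and 1 without the second CMC- library. Against covering reads 1 was called, in RPL37A, where 1.41% of all positions and 3.39% of all U were.

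In HCT116 cells CMC alone raised 2 of 1267 member positions on each scale, both of them U, where 0.373% of all positions and 1.22% of all U were called higher by totals, and 1.65% and 4.45% against covering reads. Lower calls by totals were 0 at members and 0.0145% over all positions. One lay in RPL19, a protein with a long helix that reaches towards the small subunit. Its stop percent at nucleotide 147 was 1.52 and 1.62 in the controls and 14.3 and 9.21 after treatment. The CMC+ libraries stood apart from the controls, and stop reads by totals rose by 2.79 ± 0.24 (log2, SE, edgeR adjusted p = 0.000329). The other lay in RPL37A, a small zinc-binding protein, whose stop percent at nucleotide 151 was 4.57 and 3.49 without CMC and 14.5 and 13.2 with it. Again the groups did not overlap, and the rise was 1.58 ± 0.15 (edgeR adjusted p = 0.0109). At the same U in HEK293T cells, RPL37A went from 4.87 and 4.28 percent to 12.1 and 9.08, a rise of 1.10 ± 0.16 by totals that missed the threshold (edgeR adjusted p = 0.173) and passed it against covering reads at 1.18 (edgeR adjusted p = 0.0432). RPL19 in HEK293T cells read 4.16 and 2.72 percent without CMC and 5.60 and 8.53 with it, groups that did not overlap but missed the threshold on both scales. In both genes and lines the listing fixes the direction of the stop percent within each replicate pair.

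With Terminator, stop reads rose at some positions of members of every role by totals and against covering reads, although the member median fell below 0 under TMM scaling, described next. In HEK293T cells 256 of 1040 member positions in 41 genes were called higher than in CMC- libraries by totals and 0 lower, where 33.4% of all positions were called higher and 0.0135% lower. Against covering reads 154 were called, where 12.3% of all positions were. The median log2 change at members was 0.70 by totals, beside 0.82 over all positions, and 0.64 against covering reads, beside 0.53. In HCT116 cells 162 of 1099 in 39 genes were higher and 1 lower by totals, where 26% of all positions were higher and 0.0803% lower. Against covering reads 444 were called, where 24.8% of all positions were. In knockdown cells 139 in 37 genes were higher and 4 lower by totals, beside 24.3% and 0.176% of all positions, and 330 were called against covering reads, beside 19.5%. Called higher by totals in HCT116 cells were also 139 of 766 positions in small-subunit ribosomal protein mRNAs, 96 of 788 in other mRNAs with a pyrimidine tract and 1023 of 4913 in the remaining mRNAs.

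The counts by totals depend on the scaling. TMM scaling, which sets the bulk of positions to no change, moved the median of all positions by 0.80 in HEK293T, 0.47 in HCT116 and 0.43 in knockdown cells on the log2 scale. The member median then flipped from 0.70 to -0.10, from 0.23 to -0.24 and from 0.09 to -0.34, respectively. Over all positions the median under TMM was 0.03, -0.02 and -0.04. Under TMM the member calls split into 3 higher and 5 lower in HEK293T, 62 and 67 in HCT116, and 62 and 79 in knockdown cells. Shares called over all positions under TMM are not given here, so these and later TMM counts are not read as particular to members.

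By role, the stalk mRNAs had 33 of 144 tested positions called higher by totals in HEK293T cells, 30 of 204 in HCT116 cells and 27 of 204 in knockdown cells. RPL5 and RPL11 had 5 of 37, 7 of 23 and 6 of 23. The exit tunnel group had 34 of 143, 17 of 129 and 14 of 129. The group near the peptidyl transferase centre, L1 stalk and E site, which includes RPL3, RPL8, RPL10, RPL10A and RPL36A, had 51 of 228, 36 of 219 and 30 of 219. The remaining members had 133 of 488, 72 of 524 and 62 of 524. Over all positions 33.4% were called higher in HEK293T, 26% in HCT116 and 24.3% in knockdown cells. Calls in every role group therefore say nothing particular about a role.

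In HEK293T cells the step from CMC to CMC with Terminator could be compared directly, on libraries that the contrasts above also use. By totals 108 of 1040 member positions in 35 genes were higher and 1 lower, where 23.6% of all positions were higher and 0.121% lower. Against covering reads 16 were higher, where 0.897% of all positions were. Under TMM scaling, which moved the median of all positions by 0.68, the member calls split into 2 higher and 40 lower. The share over all positions is not given for these counts. RPL36 passed on both scales. Its U at nucleotide 50 (chr19:5690533, coding) read 4.50 and 3.97 percent without CMC, 6.04 and 4.93 with CMC and 10.8 and 11.5 with Terminator. The Terminator libraries lay above all others, and the step from CMC was 1.65 ± 0.16 by totals (edgeR adjusted p = 3.8e-05) and 1.07 against covering reads (edgeR adjusted p = 0.0224). The position called lower was a C in RPL4, a protein that reaches into the tunnel, at chr15:66500296, which fell by 1.02 on the log2 scale (edgeR adjusted p = 0.0376) and by 0.59, without passing, against covering reads.

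The differences in covering reads between Terminator and CMC- libraries were larger at the 5′ ends of member mRNAs than in their bodies, where they were mostly below 0. Over the first 20 nucleotides the median of the per-position log2 differences in RPM was 0.78 and 0.79 in the HEK293T replicates, 0.78 and 0.43 in HCT116 and 0.67 and 0.71 in knockdown cells. In HEK293T cells 51 of 56 such positions were higher in both replicates. In HCT116 and knockdown cells the count was 12 of 23. The median RPM of that window, by contrast, was lower with Terminator in 2 of these 4 replicate pairs, 9.29 against 11.2 in the second HCT116 pair and 8.96 against 10.2 in the first knockdown pair. Beyond nucleotide 100 the same differences were 0.07 and -0.22 in HEK293T, -0.65 and -0.84 in HCT116 and -0.80 and -0.71 in knockdown cells. With CMC alone the first window was at -0.13 and -0.21 in HEK293T and 0.02 and -0.11 in HCT116. The first window held 56 positions of 32 genes in HEK293T and 23 of 14 genes in the other Terminator tables, so its medians rest on part of the family.

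**Figure D1:**
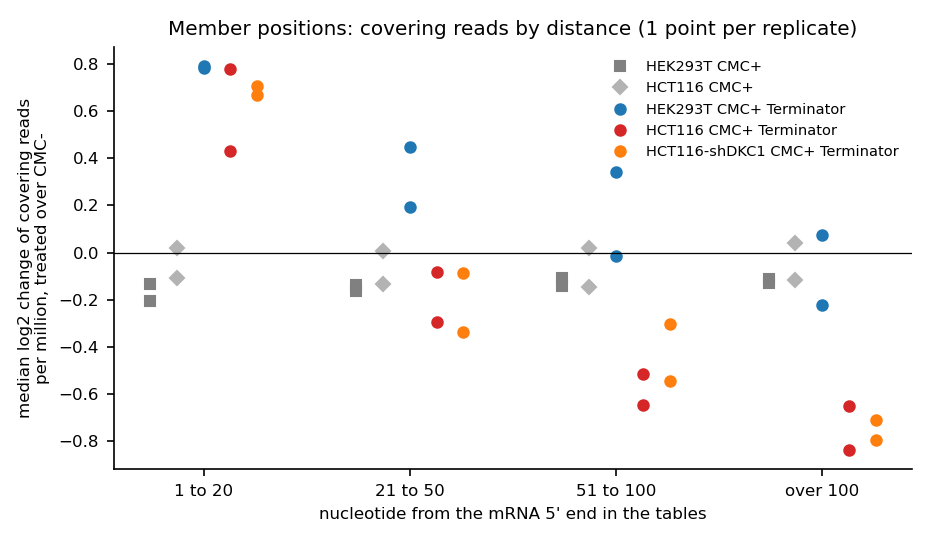
Log2 difference in covering reads in RPM between treated and CMC- libraries (y axis) at member positions, by distance from the mRNA 5′ end in nucleotides (x axis); points are medians of the per-position differences in each replicate pair. With Terminator the first 20 nucleotides lie above 0 in all 6 replicate pairs (0.43 to 0.79), and positions past 100 lie lowest.

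Stop reads followed the same course by totals. In HEK293T cells 35 of 49 member positions within the first 20 nucleotides were called higher, with a median log2 change of 1.23, against 191 of 892 past nucleotide 100 with 0.65. In HCT116 cells the counts were 12 of 20 with a median of 1.40 and 128 of 1000 with 0.18. In knockdown cells they were 12 of 20 with 1.30 and 103 of 1000 with 0.06. Against covering reads the first window gave 2, 3 and 2 calls, and positions past 100 gave 140, 409 and 298. Other mRNAs showed the same by totals, with 129 of 158 called in HEK293T cells and 84 of 122 in HCT116 cells in the first window, so a rise at the 5′ end was seen in other mRNAs as well.

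RPL9, a protein at the base of the stalk, shows the contrast between the scales. At its U at nucleotide 7 the HCT116 CMC- libraries had 11 stop reads of 28 covering and 17 of 38, and the Terminator libraries 67 of 132 and 67 of 125. Stop and covering reads were both higher with Terminator, so that by totals the stops rose by 2.58 ± 0.19 (edgeR adjusted p = 1.0e-06), while the stop percent of 39.3 and 44.7 became 50.8 and 53.6. Against covering reads the change was 0.30 and missed the threshold. Knockdown cells gave 2.63 by totals and 0.13 against covering reads. RPL34 had a U at nucleotide 6 (chr4:108620574, 5′ UTR) with stop percents of 40.0 and 41.7 without CMC and 40.0 and 42.2 with Terminator in HCT116 cells. The stop percents of the groups overlapped, while by totals its stops rose by 2.33 (edgeR adjusted p = 2.6e-05).

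In each member the tested position with the most covering reads in the first 20 nucleotides was taken, summed over all libraries of the set. The sum includes the Terminator libraries, so the choice can favour positions high in them, and it was not made in other mRNAs. By totals 24 of 32 members were called higher in HEK293T cells, 8 of 13 in HCT116 and 9 of 13 in knockdown cells. Over all positions 33.4%, 26% and 24.3% were. Against covering reads 1 member was called in each population, in RPL13A, RPL27A and RPL14, respectively. RPL13, a protein altered in a form of skeletal dysplasia, held 10 and 7 stop reads at nucleotide 19 (chr16:89560700) without CMC and 26 and 17 with Terminator in HEK293T cells, a rise of 1.45 (edgeR adjusted p = 0.00102). RPL37A held 15 and 13, and 34 and 26, at nucleotide 12 (chr2:216498861), a rise of 1.21. RPL27A, at nucleotide 20 (chr11:8683234), went from 20.0 and 20.5 to 44.0 and 49.1 stop reads, a rise of 1.31; it lies in coding sequence, at nucleotide 439 of the reference transcript, and the tables name a shorter transcript there. RPL3, a protein near the peptidyl transferase centre, missed the threshold at nucleotide 11 (chr22:39315476), with 9.17 and 8.33 against 14.2 and 13.7. That RPL3 position also lies in coding sequence of the reference transcript, and the tables name a shorter transcript there too. The distance window depends on the transcript named, and it differed between tables at 262 of 2833 tested member positions.

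Of all stop reads at listed member positions, the share in the first 20 nucleotides was 4.50% and 4.43% in HEK293T CMC- libraries, 4.44% and 4.25% with CMC and 6.12% and 6.37% with Terminator. In HCT116 cells it was 1.57% and 1.57% without CMC and 3.27% and 3.33% with Terminator, and in knockdown cells 1.59% and 1.54% against 3.23% and 3.62%. The Terminator libraries lay above the CMC- libraries of the same cells without overlap, by 1.79 ± 0.185 percentage points (SD, n = 6 replicate pairs, range 1.62 to 2.09). With 2 libraries against 2 an exact permutation test cannot go below p = 0.333. The HCT116 tables without Terminator, which list other positions, gave 7.24% and 7.13% without CMC and 7.0% and 7.22% with it. The sequence of these ends carries the pyrimidine tract: 25 of 38 member starts in RefSeq (GRCh38.p14), or 65.8%, open with C and 4 pyrimidines, against 4.04% of 27305 starts.

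**Figure D2:**
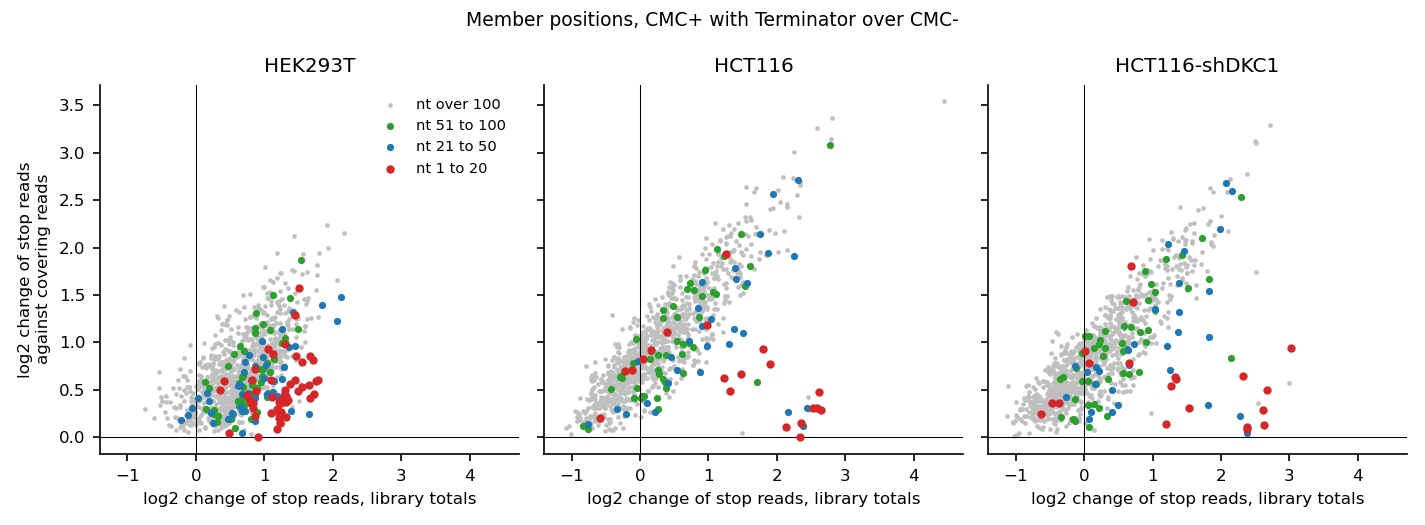
Log2 change in stop reads with Terminator over CMC- for each tested member position by library totals (x axis) and against covering reads (y axis), in HEK293T, HCT116 and knockdown cells; points within the first 20 nucleotides are marked apart from the rest. First-window positions lie to the right at low heights, with medians of 1.23, 1.40 and 1.30 on the x axis.

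Calls on both scales, the stricter reading, were found at 98 member positions of 33 genes in HEK293T cells, 143 of 36 genes in HCT116 and 118 of 34 genes in knockdown cells. Over all positions 9.36%, 14.5% and 11.3% were called on both scales. Under TMM scaling 3, 46 and 49 of the member calls remained, counts with no share over all positions given here. Of the calls on both scales, 68, 84 and 68 did not have the same 31 bases listed under another gene. Most lay in coding sequence, 88, 133 and 112. RPL13A, known for its part in silencing inflammatory mRNAs, held the most in HEK293T cells, with 8 of 37 tested positions. RPLP0, the stalk base, held the most in HCT116 and knockdown cells, with 16 and 14 of its 100 tested positions, the most of any member. Of 251 member positions tested in both lines, 53 were called in HEK293T and 37 in HCT116 cells, and 12 were shared, which is 22.6% of the first list and 32.4% of the second. Over all 5083 positions tested in both lines the shared calls were 64.3% and 49.1% of the lists. The HEK293T tables hold weighted and the HCT116 Terminator tables whole counts, and the part this plays in the overlap was not tested.

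The 6 positions listed first above were called on both scales in all 3 populations, of 251 member positions tested in both lines. Called on both scales in HEK293T and HCT116 cells were 12 of these 251 and 453 of all 5083 positions tested in both. The share of all positions called in all 3 populations is not given here, so the 6 are not read as particular to members. Under TMM scaling all of the 6 but RPL11 were also called in HCT116 and knockdown cells, and RPL37A in HEK293T cells. RPL11, RPL23 and RPL28 and the RPLP2 position were picked out after their values were seen. RPL19 gave 15.1 and 15.3 percent with Terminator in HEK293T cells, 21.7 and 18.0 in HCT116 against 1.27 and 2.20 without CMC, and 20.0 and 14.3 in knockdown cells against 3.68 and 0.427. All 6 Terminator values exceeded all 6 CMC- values. At each of the 6 positions the listing fixes the direction of the stop percent within a replicate pair. The log2 changes by totals were 2.17 ± 0.28, 2.8 ± 0.46 and 2.52 ± 0.45 (edgeR adjusted p = 0.000272, 0.000302 and 0.000526). The depth in HCT116 and knockdown cells was 83 to 154 covering reads with Terminator and 158 to 234 without CMC.

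RPL37A gave 17.3 and 18.5 percent with Terminator in HEK293T cells, 24.6 and 24.4 in HCT116 against 4.38 and 3.39, and 22.5 and 22.6 in knockdown cells against 4.97 and 4.33. The spread between replicates was small beside the gap between groups. The log2 changes were 1.81 ± 0.14, 2.34 ± 0.26 and 1.85 ± 0.26 (edgeR adjusted p = 1.4e-05, 2.0e-05 and 9.3e-05). The G beside it at nucleotide 150 went in HCT116 cells from 1.24 and 1.26 percent to 14.1 and 11.9. A raised stop on this mRNA was thus not limited to the U.

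RPL11 went from 5.21 and 4.55 percent to 23.1 and 19.3 in HEK293T cells, from 4.18 and 4.94 to 15.3 and 19.1 in HCT116, and from 5.62 and 4.25 to 17.0 and 19.9 in knockdown cells. With CMC alone it read 7.59 and 6.05 in HEK293T, between the CMC- and the Terminator libraries. The log2 changes with Terminator were 1.43, 1.30 and 1.41 (edgeR adjusted p = 0.000312, 0.000716 and 0.000222). The U at nucleotides 412 and 413, next to it, were called on both scales in HCT116 and knockdown cells, so that a run of 3 U was called there.

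RPLP2 had low stop percents in its 5′ UTR, 1.88 and 1.05 without CMC, 2.66 and 2.22 with CMC and 3.75 and 3.06 with Terminator in HEK293T cells. In HCT116 it went from 2.10 and 2.39 to 4.27 and 5.50, and in knockdown cells from 2.24 and 2.29 to 8.28 and 3.20. The groups did not overlap in any population, though the knockdown replicates lay far apart. The log2 changes were 2.07, 1.5 and 1.82 by totals and 1.23, 1.10 and 1.06 against covering reads.

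RPL23, a protein at the subunit interface, was called at a G, with 4.36 and 4.83 percent without CMC and 11.2 and 11.5 with Terminator in HEK293T cells. In HCT116 it went from 4.43 and 4.05 to 21.1 and 16.4, and in knockdown cells from 4.09 and 5.08 to 20.6 and 18.5. With CMC alone HEK293T cells gave 5.58 and 5.42, above both controls, a change that missed the threshold. RPL28, a protein that yeast lacks, was called at an A, from 2.39 and 2.66 to 9.22 and 10.2 in HEK293T, from 1.77 and 1.49 to 10.8 and 9.64 in HCT116 and from 1.14 and 2.05 to 9.17 and 7.17 in knockdown cells. In these mRNAs the positions were again part of runs called on both scales, nucleotides 395 to 398 of RPL23 and 343 to 345 of RPL28 in HCT116 cells, and 395 and 396 of RPL23 and 342 to 344 of RPL28 in knockdown cells.

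**Figure D3:**
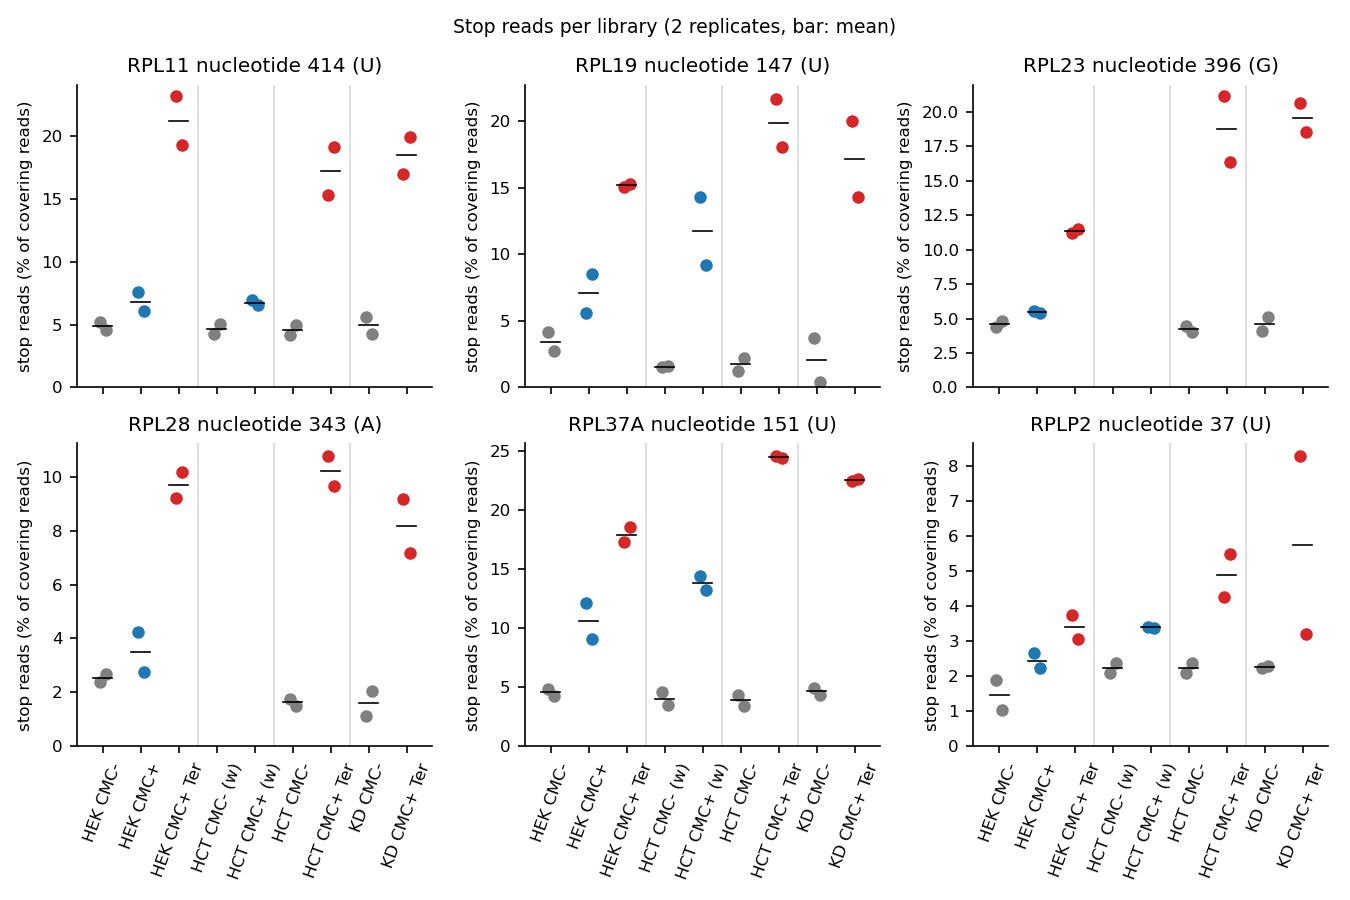
Stop percent (y axis) in each library at the 6 member positions called on both scales in all 3 populations; each panel is a position, points are replicates, and (w) marks the HCT116 tables without Terminator, whose multi-matching reads are weighted, as are those of HEK293T. Terminator libraries lie above the CMC- libraries of the same cells in every panel, and RPL19 and RPL37A also rise with CMC alone in HCT116 cells, to 9.21 to 14.5 percent. The listing fixes these directions within each replicate pair.

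Other large rises lay in single populations or pairs. RPL15, altered in some cases of Diamond-Blackfan anaemia, had a U in its leader with 1 stop read of 128 and 1 of 181 without CMC in HCT116 cells and 24 of 217 and 15 of 251 with Terminator. The change was 4.44 ± 0.66 by totals and 3.54 against covering reads, on control counts so low that its size is uncertain. In knockdown cells the same U had 5 of 120 and 2 of 205 without CMC and 10 of 173 and 25 of 303 with Terminator, a rise of 2.51. RPL35A went at nucleotide 147 from 2.8 and 2.97 percent to 25.0 and 27.5 in knockdown cells, and its next U, at nucleotide 148, from 12.4 and 7.41 to 40.5 and 36.5 in HCT116.

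RPLP2 was also called at a coding U (chr11:810269, nucleotide 286) in HCT116 cells, from 5.46 and 3.16 percent to 22.4 and 15.4, a rise of 1.97 ± 0.24. RPL19 had a called A at chr17:39202430, from 0.926 and 1.61 percent to 16.2 and 9.25 in HCT116 cells. RPL31, a protein of the exit rim, had a called A (chr2:101002765), from 1.46 and 0.278 percent to 5.88 and 6.76, in a stretch listed under 2 genes. In HEK293T cells RPL18 was called at a C (chr19:48616805), from 3.84 and 4.73 percent to 14.2 and 20.2, and RPL3 at a C (chr22:39314814), from 1.05 and 0.602 to 2.62 and 2.36. RPL7A, RPL13 and RPL4 had HEK293T calls at G, A and A, with log2 changes of 1.77, 1.77 and 1.75 by totals.

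The share of tested positions called higher was not larger at U than at other bases by totals. Among members it was 23.3% of U and 25.5% of other bases in HEK293T cells, 11.1% and 17.5% in HCT116, and 10.7% and 14.1% in knockdown cells. Against covering reads the U share was 17.5% beside 13.1%, 42.4% beside 38.8%, and 29% beside 30.8%. Over all positions the U share by totals was 30.7% beside 35.2%, 20% beside 29.4%, and 17.9% beside 28.0%. Against covering reads it was 17.8% beside 8.76%, 27% beside 23.5%, and 21.7% beside 18.2%. With CMC alone, by contrast, 198 of the 209 calls over all positions in HEK293T cells and 262 of 340 in HCT116 were U, against covering reads.

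The bases downstream of called positions differed from those of other tested positions. Among members past nucleotide 100, 85.0% of positions called by totals in HEK293T cells had GG or GC within the next 4 bases, against 63.5% of those not called. The shares were 91.4% and 69.6% in HCT116 and 90.2% and 70.4% in knockdown cells. G and C made up 82.2%, 83.3% and 81.2% of the 5 bases downstream of called positions and 64.8%, 68.3% and 69.0% elsewhere. Upstream they made up 54.1%, 53.6% and 54.3% beside 51.4%, 51% and 51%. In other mRNAs the upstream share was 61.2% beside 48.7% in HEK293T and 60.6% beside 47.4% in HCT116 cells. GGCC within 6 bases was found at 18.2%, 19.5% and 19.6% of called positions and at 5.62%, 8.92% and 9.22% of the others. Other mRNAs showed the same direction, 86.8% beside 51.5% for GG or GC in HEK293T cells. For calls against covering reads the downstream G and C shares in members were closer, 76.3% beside 67.0%, 76.0% beside 66.2% and 77.0% beside 67.3%. Upstream they were lower at called positions, 45.3% beside 53.3%, 51.2% beside 51.5% and 50.8% beside 51.6%. The letters were chosen after the sequences were seen and are given as a description with no test.

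The contexts of known mRNA pseudouridine synthases were rare in these mRNAs. TNTAA or TNTAG with the listed U at the third letter, the PUS7 context, was found at 69 of 4339 listed member U with enough sequence, or 1.59%, against 1.21% of all listed U. It was found at 0 of 73 member U called by totals in HEK293T cells, 0 of 49 in HCT116 and 1 of 46 in knockdown cells. GTTCNANNC, the TRUB1 context, was found at 4 listed member U and at none of those tested. A run of at least 4 T that holds the listed U was found at 129, or 2.97%, against 4.19% of all listed U. These motifs were searched on the mRNA strand only, and a match is a description of letters.

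Of member U in the PUS7 context, 5 were tested in each set of tables. The 3 that follow, named after their values were seen, are shown with the motif's listed U in capitals because they passed on a scale or had the largest change with CMC alone in HCT116 cells.
RPLP1, chr15:69455210, plus strand, nucleotide 1766, coding, exon 3: atctgcaatgTaggggccggt
RPL3, chr22:39314750, minus strand, nucleotide 215, coding, exon 6: cctgctcgtgTagccttctct
RPL19, chr17:39204549, plus strand, nucleotide 621, coding, exon 6: cccgcaggtcTaagaccaagg
The RPLP1 U read 4.01 and 3.0 percent without CMC and 8.43 and 11 with Terminator in HCT116 cells, and 4.23 and 3.21 against 13.2 and 8.88 in knockdown cells. It was the U called by totals, at 1.00 in knockdown cells (edgeR adjusted p = 0.0019), and it passed against covering reads in both, at 1.5 and 1.52. The Terminator libraries stood above the controls, a direction that the listing fixes within each replicate pair. In HEK293T cells the same U gave a smaller change of 0.71 by totals that missed the 2-fold limit. The RPL3 U read 1.68 and 1.67 percent without CMC and 2.63 and 4.15 with Terminator in HCT116 cells, and 1.89 and 1.43 against 4.35 and 4.71 in knockdown cells. It passed against covering reads in these populations, at 1.04 and 1.46, and not by totals. The RPL19 U was tested with CMC alone in HCT116 cells, where it read 5.47 and 3.18 percent in the controls and 12.4 and 6.95 after treatment. The groups did not overlap, in the direction that the listing fixes within each replicate pair. The change of 1.08 missed the threshold (edgeR adjusted p = 0.655). Of the rest, also named after their values were seen, a U of RPL15 (chr3:23918453) passed against covering reads in HEK293T cells, at 1.25 (edgeR adjusted p = 0.0404), and changed by 0.32 by totals. Small rises below the 2-fold limit were seen with Terminator at RPL5 and RPLP2. RPL5 at chr1:92837498 changed by 0.23 by totals and 0.87 against covering reads in HEK293T cells. RPLP2 at chr11:812574 changed by 0.20 and 0.18 by totals in HCT116 and knockdown cells. No rise by totals was seen for RPL3 at chr22:39316832, at -0.36 and -0.19 in HCT116 and knockdown cells, or RPL21 at chr13:27256238, at -0.01 and -0.11. RPL3 at chr22:39314203 stood at -0.23 in HEK293T cells.

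Lower calls were few. The listing keeps only positions whose treated stop percent is not below the control's, so a lower stop percent could not appear at them. In HCT116 cells an A of RPL13 at chr16:89561675 fell by 1.09 on the log2 scale by totals (edgeR adjusted p = 0.0073) while its stop percent was 3.85 and 3.68 without CMC and 3.92 and 4.10 with Terminator. In knockdown cells RPL37 (chr5:40834223), RPL13 (chr16:89562907) and RPL41 (chr12:56117639), the smallest ribosomal protein, fell by 1.12, 1.11 and 1.04, and RPL17 (chr18:49489516), named after its value was seen, fell by 1.01. Against covering reads these 5 positions had changes of 0.10, 0.22, 0.54, 0.16 and 0.17, all above 0, the direction that the listing fixes.

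Some member positions stopped reverse transcriptase in most reads without CMC. In HEK293T cells a G of RPL13A (chr19:49490615) stopped 86.7 and 81.3 percent of reads without CMC and 89.4 and 83.8 with Terminator, ranges that overlap. It lies outside the exons of the gene's reference transcript, as does the RPLP1 position at chr15:69455167, with 53.5 and 47.0 percent without CMC. The deposited tables place them in other transcripts of these genes, at nucleotides 766 and 1723. In HCT116 cells a C of RPL3 (chr22:39319627, 5′ UTR) stopped 76.9 and 66.7 percent without CMC and 83.8 and 80.0 with Terminator, and a G of RPL19 (chr17:39200310, 5′ UTR) 60.0 and 58.3 against 71.0 and 73.3.

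DKC1 knockdown did not change the response of any member position past the test. The difference between the Terminator response of knockdown and wild-type HCT116 cells was called at 0 of 1099 member positions on either scale, with 19 at an unadjusted p under 0.05 by totals, 14 against covering reads and 0 adjusted calls by DESeq2. Over all positions 0 were called by totals (311 at an unadjusted p under 0.05 and 0 by DESeq2), and against covering reads 0 were higher and 0.0115% lower, 3 positions in all. The median difference over members was -0.11 by totals and -0.13 against covering reads, beside -0.03 and -0.07 over all positions. Of 143 HCT116 and 118 knockdown member calls on both scales, 73 were shared, 51% and 61.9% of each list. Over all positions the shared calls were 61.2% and 78.6% of the lists, so members overlapped less. Across the 1099 positions the responses had a Pearson correlation of 0.789 by totals and 0.661 against covering reads, over positions that share libraries.

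At the positions named above the difference was small beside its error, -0.28 ± 0.76 for RPL19, -0.49 ± 0.41 for RPL37A, 0.11 ± 0.34 for RPL11, 0.32 ± 0.44 for RPLP2, -0.19 ± 0.31 for RPL23 and -0.09 ± 0.47 for RPL28 (log2, SE, by totals). On simulated data of the Terminator comparison, 4-fold changes were recovered at 94.5% of positions in HCT116 and 93.5% in knockdown cells, and 2-fold changes at 2.00% and 7.50%. Recovery meant a call, which itself requires a 2-fold change, so the low shares at 2-fold are partly set by that limit. Each simulation changed 200 positions, while the fits called 26% and 24.3% of all positions higher by totals. These rates therefore need not hold in the fits. The difference between the knockdown and wild-type responses, which carries a larger error, was not simulated.

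**Figure D4:**
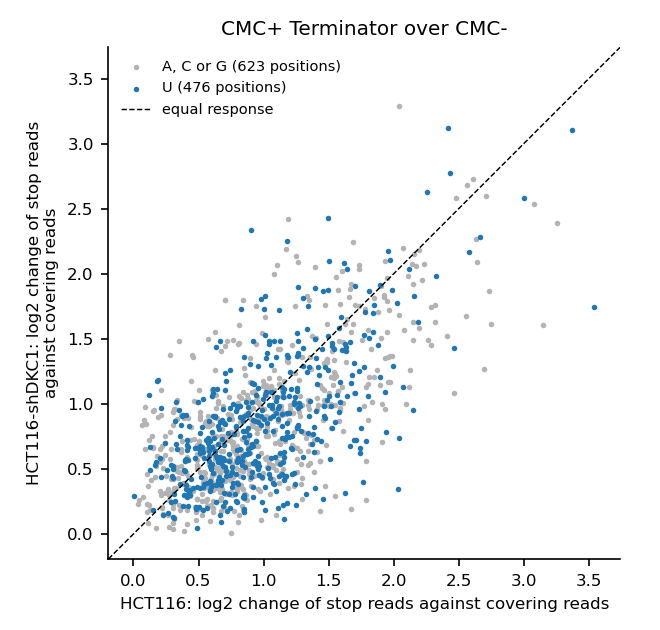
Log2 change in stop reads against covering reads with Terminator over CMC- at each tested member position in wild-type HCT116 (x axis) and knockdown cells (y axis), U and other bases in separate colours, with the line of equal response. The 476 U and 623 other positions lie along that line, slightly below it on the median (-0.13).

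The covering reads of CMC- libraries also allow member mRNA levels to be compared between knockdown and wild-type cells. RPL24, a protein that bridges the subunits, was the only one of 44 members called. Its level rests on 2 positions, nucleotides 324 and 78. It had 121 and 137 covering reads in wild-type and 322 and 367 in knockdown libraries, or 4.44 and 4.38 against 10.9 and 12.5 RPM. The knockdown libraries were higher by more than 2-fold without overlap, at 1.36 ± 0.18 on the log2 scale (edgeR adjusted p = 2.69e-05), where 0.658% of the 2278 genes tested were called. This test had no replicate block; with it RPL7, RPL14 and RPL36A were called as well (edgeR adjusted p = 0.0288, 0.0344 and 0.00499). In such bulk samples more RNA per cell and more cells with the RNA cannot be told apart.

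The Terminator libraries, which the test did not use, had 35 and 36 covering reads in wild-type against 81 and 84 in knockdown cells at nucleotide 324 (chr3:101682795), and 27 and 35 against 80 and 135 at nucleotide 78 (chr3:101686523). The knockdown libraries were higher at both positions. All 12 RPL24 positions listed on both sides were higher in knockdown cells, by 1.00 to 1.73 in CMC- and 0.97 to 1.67 in Terminator libraries. The other 43 members lay between -0.09 for RPL19 and 0.34 for RPL36A, which missed the threshold without the block (edgeR adjusted p = 0.55), with a median over all 44 of 0.08 beside 0.09 for small-subunit mRNAs.

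**Figure D5:**
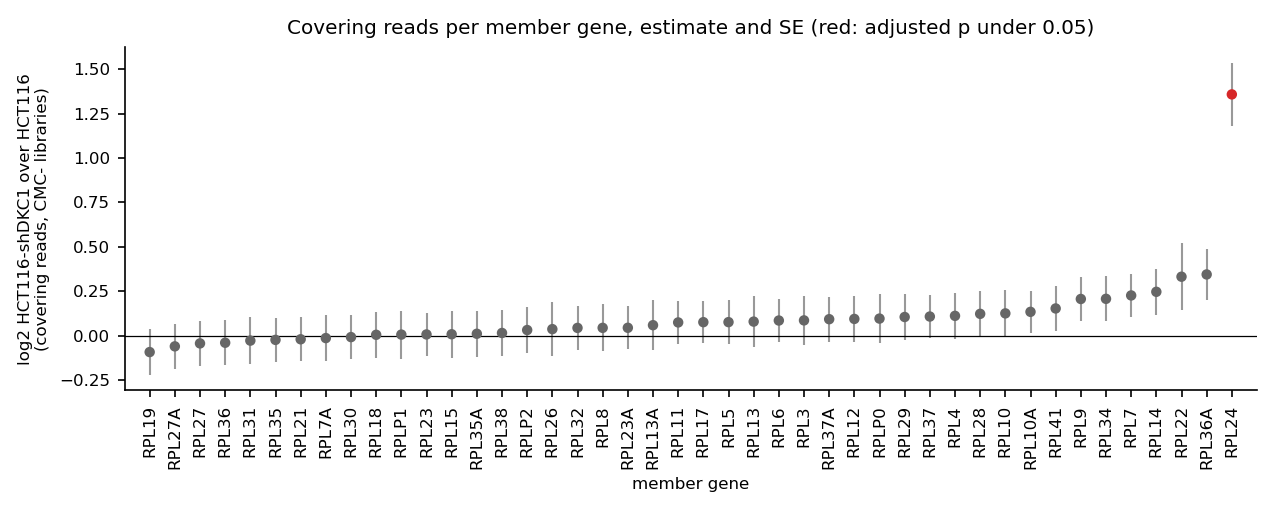
Log2 difference in covering reads of CMC- libraries between knockdown and wild-type HCT116 cells for 44 member mRNAs, sorted, with bars of 1 standard error. RPL24, in red, stands at 1.36, and the others lie between -0.09 and 0.34.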

How the data were processed

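Per the submitters' processing notes, reads were trimmed with cutadapt 2.8 and aligned to hg38 with STAR (version not given); positions were listed by rtsSeeker, per the names in the deposited tables. In the Terminator tables of HCT116 and knockdown cells the authors deposited whole-number counts of stop and covering reads. In the other 6 tables the deposited values are expected counts, because multi-matching reads carry fractional weight. The deposited RPM values gave each library's total. Each of the 10 tables pairs a treated with a CMC- library. Positions listed in all tables of a set were fitted, in 3 sets: HEK293T, HCT116 without Terminator, and HCT116 and knockdown with Terminator. A position's depth is its covering reads, given beside the named values.

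Stop reads were tested with edgeR 4.0.16 (R 4.3.3; glmQLFit, glmQLFTest) across all positions that held 10 stop reads or more in 2 libraries or more, expected counts rounded, library totals as sizes, and the replicate number as a block. The Benjamini-Hochberg adjustment ran over all positions tested. The same fit with the log of covering reads as offset gave changes against covering reads. Levels were tested on covering reads of CMC- libraries summed per gene, with TMM scaling, without the block and at an adjusted p under 0.05. The replicate block follows the series' design, which pairs each CMC+ with a CMC- sample; deviations of same-numbered libraries correlated at 0.149 to 0.593 over all positions and at 0.0431 to 0.562 over member positions. Up to 10 U and 6 other positions per comparison were named by the size of their change, 1 per gene, with the largest falls, the best covered 5′ position of members, the highest stops without CMC and every level called. The members and lists were chosen with earlier results of these data known. Alternatives were TMM, DESeq2 1.42.0, covering reads as offset, no minimum, no block, copies left out and each replicate left out. The scripts were tested on simulated data. Some items are not reported here.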

Additional observations from a re-analysis of the deposited data

How the results depend on the processing

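The replicate block made little difference to the counts of member positions: without it 261 were called higher with Terminator in HEK293T, 103 between Terminator and CMC, 157 in HCT116 and 135 (5 lower) in knockdown cells, 2 with CMC alone in HCT116, and 0 with CMC alone in HEK293T or for the interaction. For levels, adding the block called 4 members in place of 1 (RPL7, RPL14, RPL24 and RPL36A). The other choices moved the counts more. Against covering reads they were 1 with CMC in HEK293T, 154 with Terminator, 16 (0 lower) between Terminator and CMC, 444 (0 lower) in HCT116 and 330 (0 lower) in knockdown cells. With TMM they were 3 (5 lower), 2 (40 lower), 62 (67 lower) and 62 (79 lower) for the 4 Terminator comparisons in that order, and DESeq2 gave 0 (2 lower), 1 (2 lower), 15 (0 lower) and 12 (1 lower), and 0 with CMC in HCT116. With no minimum of stop reads, HCT116 with CMC gave 0 and the HEK293T step from CMC gave 0 lower. Leaving out positions with copies gave 103 in HCT116 and 89 (2 lower) in knockdown cells, of fewer positions tested. Leaving out each library in turn gave 108 to 168, 34 to 72 (0 to 0 lower), 116 to 133 (0 to 4 lower), 103 to 117 (2 to 4 lower) and, for CMC alone in HCT116, 0 to 2. Against covering reads 5 named changes reversed: RPL8 at chr8:144792393 (-0.14), RPL13 at chr16:89561675 (0.10) and chr16:89562907 (0.54), RPL37 (0.22) and RPL41 (0.16). For RPL13, RPL37 and RPL41 the listing fixes that direction. The 5′ share difference of 1.79 points was 1.42 for nucleotides 1 to 10, 2.83 for 1 to 50, 2.76 with copies left out and 2.99 over all positions of each table. The cause of these shifts was not tested. RPL24 was called under every alternative run, at 1.29 to 1.42. With 2 libraries per group, 2-fold changes were mostly not called in simulations that changed 200 positions. A call itself requires a 2-fold change, so that low share is partly set by the limit. The rate in the data themselves was not tested. The covering-read scale for CMC alone in HCT116 was chosen after seeing the data.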
